A study of Mus musculus with 28 samples.

Results

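The regions described here were the 930 H3K9ac peaks of at least 8000 bp (end minus start plus 1) in mouse P19 cells treated with MS-275, out of 84418 H3K9ac peaks deposited for that library. They were chosen by their length in the MS-275 library, so their width with MS-275, and their comparison with the H3K9ac peaks of DMSO cells, are a description and carry no test. P19 is an established line of mouse embryonal carcinoma cells that turns into neural cells in retinoic acid. In the MS-275 group, cells received 1 µM retinoic acid, 1 µL of a 10 mM solution of MS-275 was added after 24 h, and cells were collected at day 2. The DMSO group was treated in the same way with 1 µL of DMSO, so both day 2 groups carried retinoic acid. Day 4 cells, called neural stem and progenitor cells in the labels, had 1 µM retinoic acid for 4 days, day 8 cells had been replated without it after day 4, and day 0 cells were P19 cells before differentiation. ChIP-seq of 3 modifications of histone H3, acetylation of lysine 9 (H3K9ac), crotonylation of the same lysine (H3K9cr) and lactylation of lysine 18 (H3K18la), gave 1 peak list per mark and treatment at day 2 and 2 per mark at day 4, ATAC-seq gave 2 lists at day 4, and RNA-seq gave 2 libraries for each of the 5 groups. The labels give no final concentration of MS-275 in the medium. With 1 library per mark and treatment at day 2, no difference in peaks between MS-275 and DMSO has a replicate check.

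Acetyl groups on histone tails are placed by acetyltransferases and removed by deacetylases. MS-275 (entinostat) inhibits class I deacetylases, which are also known to remove crotonyl and lactyl groups from histones. H3K9ac is typically found in short peaks at active gene starts, and wide acetylated stretches are known from Hox clusters and from genes that mark a cell type. In P19 cells retinoic acid acts through nuclear receptors (Rara, Rarb and Rarg) that bind pairs of short repeats in DNA and switch on Hox genes and the enzymes that break retinoic acid down.

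Receptor pairs bind 2 units of 6 letters, AGGTCA or a variant of it, spaced by 5 bases. Of the 614 annotated coding starts that lay inside the domains, 1 held GGTTCA followed at that spacing by AGTTCA, and 1 held AGTTCA followed by AGTTCA, in the 300 bases from 250 before to 50 after the start, searched on both strands. Over all 21263 listed starts the same counts were 1 and 4. AGGTCA followed by AGGTCA was in 0 of the 614 starts and in 1 of all listed starts, and GGTTCA followed by AGGTCA was in none of either set. The single unit AGGTCA was in 11.4% of the starts inside domains and in 14.7% of all listed starts. Both matching starts belonged to genes of retinoic acid signalling. Rarb encodes a retinoic acid receptor (chr14:16575427-16575726, minus strand, GRCm38.p6) and Cyp26a1 an enzyme that degrades retinoic acid (chr19:37697558-37697857, plus strand). They are shown 5′ to 3′ from RefSeq with the repeat in capitals; the Cyp26a1 match reads on the opposite strand, so its capitals are the reverse complement.
Rarb: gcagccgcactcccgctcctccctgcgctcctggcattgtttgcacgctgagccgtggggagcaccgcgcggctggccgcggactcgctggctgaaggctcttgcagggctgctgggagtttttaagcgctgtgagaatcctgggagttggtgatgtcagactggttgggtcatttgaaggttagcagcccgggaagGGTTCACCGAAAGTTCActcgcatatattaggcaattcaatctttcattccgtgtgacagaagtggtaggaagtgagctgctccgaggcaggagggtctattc
Cyp26a1: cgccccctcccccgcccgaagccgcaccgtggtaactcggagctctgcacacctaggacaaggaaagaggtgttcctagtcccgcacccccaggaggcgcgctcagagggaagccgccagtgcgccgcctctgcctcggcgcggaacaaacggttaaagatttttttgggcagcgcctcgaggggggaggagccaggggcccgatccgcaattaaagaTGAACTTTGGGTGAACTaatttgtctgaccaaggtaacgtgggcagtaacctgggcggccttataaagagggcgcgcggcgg
The repeat began 53 bp before the Rarb start and 32 bp before the Cyp26a1 start. A match of letters is a description and does not show binding.

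CpG content varied between starts. The median was 20 CpG in 300 bases for starts inside domains, 20 for the 9823 starts in the other MS-275 H3K9ac peaks, and 13 for all listed starts. It was 20 in domains of which at least 50% lay in DMSO H3K9ac peaks (235 starts), 21 in those with 25% to under 50% (290 starts) and 18 in those above 0 and under 25% (86 starts). The 3 starts in domains with no DMSO H3K9ac peak (Vmo1, Ccdc182 and Ripor3) had 2, 7 and 5. Such values were not particular to these 3 starts. The Hoxd4 start had 4 CpG in a domain covered to 50.6% with DMSO, and the lower quartile of all listed starts was 4. A start with more CpG and a start with fewer are shown as examples, with CG in capitals. They are Trim71, a translation regulator of pluripotent cells in the longest domain outside the Hox clusters (19 CpG, chr9:114564320-114564619, minus strand), and Ripor3 (5 CpG, chr2:168010569-168010868, minus strand).
Trim71: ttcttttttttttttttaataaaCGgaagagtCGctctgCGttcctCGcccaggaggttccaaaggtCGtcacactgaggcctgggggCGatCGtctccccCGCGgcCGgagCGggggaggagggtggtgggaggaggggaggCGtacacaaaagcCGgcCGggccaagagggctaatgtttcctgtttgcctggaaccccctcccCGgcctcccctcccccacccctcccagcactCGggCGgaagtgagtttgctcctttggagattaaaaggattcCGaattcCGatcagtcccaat
Ripor3: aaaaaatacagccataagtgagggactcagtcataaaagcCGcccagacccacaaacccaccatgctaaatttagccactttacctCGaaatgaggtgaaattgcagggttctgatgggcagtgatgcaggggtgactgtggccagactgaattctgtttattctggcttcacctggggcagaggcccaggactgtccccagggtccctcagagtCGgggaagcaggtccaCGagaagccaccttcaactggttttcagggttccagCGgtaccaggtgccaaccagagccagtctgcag
The Trim71 start lay in an H3K9ac peak with MS-275, with DMSO and in both day 4 libraries. The Ripor3 start lay in an H3K9ac peak with MS-275 and in none with DMSO or at day 4.

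RNA totals were 18115926 to 19586374 estimated counts per library. Levels are given as CPM (each library's counts scaled to a common total), which compare a gene between groups but not genes with each other. The labelled identity was checked against marker genes. Pou5f1, a core pluripotency factor, averaged 79.1 CPM with MS-275, 39.0 with DMSO and 1418 at day 0, and the neural factor Sox1 averaged 32.3, 107 and 1.78 CPM in the same groups. Endoderm markers were low throughout, with summed levels of 22.0 to 22.7 CPM with MS-275 and up to 21.5 CPM with DMSO, and Sox17 was under 1 CPM in every group. The summed level of 14 fibroblast and mesenchyme markers was 1305 and 1357 CPM with MS-275, against 561 and 566 CPM with DMSO, and its part in the results below was not tested. In bulk RNA, fewer cells of a type and less RNA per cell cannot be told apart.

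The domains were 1.102% of the MS-275 H3K9ac peaks and held 8.75% of their bases, 10.7 of 122 Mb. Their median length was 10015 bp (quartiles 8808 and 12384 bp), and the longest had 69781 bp. The authors' fold enrichment at the summit had a median of 17.2 in the domains and 4.73 over the whole list. The threshold fell in a continuum: the shortest domains had 8000 and 8013 bp, and the longest peaks left out had 7998 and 7997 bp. DMSO H3K9ac peaks covered 32.6% and 54.9% of those 2 shortest domains, and 74.1% and 14.6% of the 2 peaks left out. Peaks of this size were present in other lists too, with 793 for H3K9cr and 1 for H3K18la with MS-275, 33 for H3K9ac, 30 for H3K9cr and 8 for H3K18la with DMSO, and 122 and 126 for H3K9ac in the day 4 libraries. The whole MS-275 H3K9ac list covered 122 Mb against 34.2 Mb with DMSO. The depth of the ChIP libraries and the caller's settings are unknown, and their part in the widths was not tested.

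Hox clusters supplied 5 of the 10 longest domains. The longest (chr11:96289367-96359147) ran over Hoxb2 to Hoxb7, and DMSO H3K9ac peaks already covered 84.98% of it. The second, of 45116 bp, overlapped Hoxa2, Hoxa3 and Hoxa4 with 83.7% covered, and a domain of 32368 bp at Hoxc4 and Hoxc5 (chr15:103013924-103046291) had 77.7% covered. DMSO peaks covered less of the domain of 35487 bp at Hoxd3 and Hoxd4 (chr2:74719189-74754675, 50.6%) and of the domain of 26358 bp that held Hoxa6, Hoxa7 and Hoxa9 (chr6:52204733-52231090, 35.5%). Outside the Hox clusters, the domain of 43120 bp at Trim71 (chr9:114522957-114566076) had 35.2% covered, that of 32748 bp at the transcription factor gene Zfhx3 (chr8:108704660-108737407) 53.0%, and that of 26889 bp at Rara (chr11:98948561-98975449) 52.6%. The domain of 31448 bp over Smad7, a feedback inhibitor of TGF-beta signalling, had 33.5% covered. The least covered of the 10 was the domain of 30071 bp at Klhdc8a (chr1:132280165-132310235), with 6.62%.

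In DMSO cells most domains held H3K9ac as shorter peaks. DMSO H3K9ac peaks covered 34.4% of all domain bases, and the median domain was covered to 32.0% (quartiles 18.3% and 48.5%, from 0% to 100%). A single DMSO peak lay in 255 domains, 2 peaks in 326 and 3 or more in 301, up to 10. The DMSO peak itself reached 8000 bp in 33 domains, and 212 domains were covered to at least 50%. No DMSO peak was found in 48 domains (5.16%). The share was 14.9% of the 4491 MS-275 peaks of 4000 to under 8000 bp and 74.6% of the 78997 shorter ones. This count depends on region length, since a longer region has more room to touch a peak. By bases, DMSO peaks covered 34.4% of the domains, against 33.9% of peaks of 4000 to under 8000 bp and 23.7% of shorter ones. The domains were thus nearly level with the next class by bases. In that class 1277 of the 4491 peaks were covered to at least 50%, against 212 of the 930 domains. The point of highest MS-275 signal lay in a DMSO peak in 764 domains (82.2%).

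**Figure D1:**
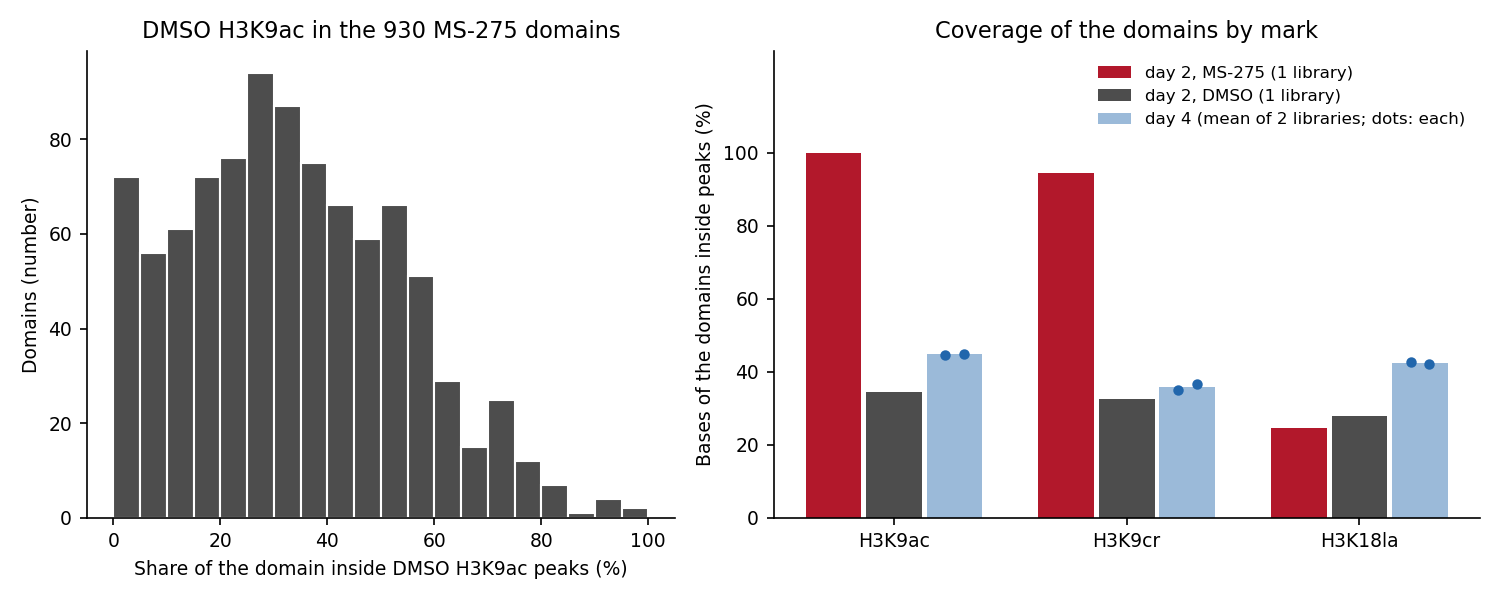
Left, number of domains (vertical axis) by the share of their bases inside DMSO H3K9ac peaks (horizontal axis, percent, in bins of 5 percentage points). Right, percent of all domain bases inside peaks of each mark with MS-275 (1 library), with DMSO (1 library) and at day 4 (mean of 2 libraries, dots for each); H3K9ac with MS-275 is 100% by the choice of the regions, H3K9cr is 94.4% with MS-275 against 32.5% with DMSO, and H3K18la is 24.6% against 28.0%.

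The extremes differed in what they held. Domains with the highest DMSO coverage lay at Hoxa3 and Hoxa5 (100%), at a stretch with no coding gene (chr13:83725262-83734814, 96.5%), at Mllt10 and Skida1 (92.3%) and at Arid1a, a chromatin remodeller subunit (92.3%). Among domains without a DMSO peak, the 5 longest overlapped the cadherin gene Cdh22 (15591 bp), BC052040 (15120 bp), Rgma, which encodes an axon guidance protein (13385 bp), no coding gene (chr8:26878818-26890348, 11531 bp) and Elfn2 (11422 bp). H3K9cr peaks with MS-275 covered 81.2% to 98.5% of these 5. Of the 4 genes they overlapped, Cdh22, BC052040 and Elfn2 were called higher with MS-275 and Rgma was not called. None of the 4 had a listed start inside these domains. Of all genes tested, 31.9% were called higher and 31.4% lower, and 4 genes are too few to set against these shares. Cdh22 had 5.35 and 5.92 CPM with MS-275, against 0.576 and 0.625 CPM with DMSO (log2 fold change 3.22, SE 0.26, edgeR adjusted p = 1.58e-08). BC052040 had 109 and 115 CPM with MS-275, against 43.4 and 45.4 CPM with DMSO (log2 fold change 1.34, SE 0.07, edgeR adjusted p = 8.10e-11). For both genes the groups did not overlap. Elfn2 had 1.83 and 2.74 CPM with MS-275, against 0.105 and 0.114 CPM with DMSO (log2 fold change 4.31, SE 0.46, edgeR adjusted p = 5.12e-07). Its DMSO level was close to the floor, so the size of its fold change is imprecise. Rgma had 68.3 and 74.5 CPM with MS-275, against 77.2 and 68.0 CPM with DMSO (log2 fold change −0.02, SE 0.08, edgeR adjusted p = 0.810), and its groups overlapped.

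Crotonylation covered nearly the same ground as acetylation with MS-275, and lactylation did not. H3K9cr peaks covered 94.4% of domain bases with MS-275, against 32.5% with DMSO, and coverage was higher with MS-275 in 929 of 930 domains. In MS-275 H3K9ac peaks of 4000 to under 8000 bp, H3K9cr covered 90.97% with MS-275, against 32.3% with DMSO. In shorter ones the values were 70.4% against 22.6%. The whole H3K9cr list was larger with MS-275, at 107 Mb against 32.5 Mb. H3K18la peaks covered 24.6% with MS-275, against 28.0% with DMSO, and coverage was higher with MS-275 in 369 domains and lower in 555. The whole H3K18la list was also smaller with MS-275, at 16.3 Mb against 26.8 Mb. In the shorter H3K9ac peaks the same pair of values was 16.1% against 24.5% (4000 to under 8000 bp) and 7.78% against 16.4% (under 4000 bp).

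H3K18la coverage was also split by DMSO H3K9ac. DMSO H3K18la went with DMSO H3K9ac, from 4.80% to 44.2% of bases across the coverage classes below, so the split itself sets the DMSO values low or high, and the pairs are given as a description. In the 7.01 Mb of domain bases outside DMSO H3K9ac peaks, H3K18la covered 20.1% with MS-275, against 8.16% with DMSO. In domains with no DMSO H3K9ac peak the values were 21.4% against 4.80%, and in domains covered to at least 50% they were 27.1% against 44.2%. Intermediate domains lay between these, with 23.5% against 16.6% (above 0 and under 25%) and 24.3% against 29.7% (25% to under 50%). These coverage classes were chosen after the values were seen. The depth of the 2 H3K18la libraries is unknown, and its part in these values was not tested.

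Around gene starts, the domains reached to both sides and farther into the gene. In the 271 domains with exactly 1 start position, the domain reached a median of 3720 bp upstream and 6310 bp downstream, and 176 (64.9%) reached farther downstream. The summit lay downstream of the start in 200 and within 2000 bp of it in 204, with a median position 564 bp downstream. At 3000 bp into the gene, 90.4% of positions lay in an MS-275 H3K9ac peak, against 26.6% in a DMSO peak. At 3000 bp upstream the shares were 74.5% with MS-275, against 21.8% with DMSO. The choice of long MS-275 peaks sets these MS-275 shares high. DMSO peaks also covered more positions into the gene, with 47.2% at 2000 bp into it and 21.4% at 2000 bp upstream.

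Near the start, H3K18la coverage was lower with MS-275 than with DMSO, and not only at the start itself. At 500 bp into the gene the shares were 22.5% with MS-275, against 59.8% with DMSO. At 500 bp upstream they were 32.5% against 56.5%. The start was a dip in both treatments: 250 bp into the gene the shares were 25.8% with MS-275 and 63.5% with DMSO, against 12.2% and 50.6% at the start. A H3K18la peak covered 33 of the 271 starts with MS-275, against 137 with DMSO, while H3K9cr covered 257 with MS-275, against 233 with DMSO. At 3000 bp into the gene the H3K18la shares were 13.7% with MS-275, against 14.8% with DMSO. At day 4, H3K18la peaks covered 176 and 173 of the starts in the 2 libraries.

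**Figure D2:**
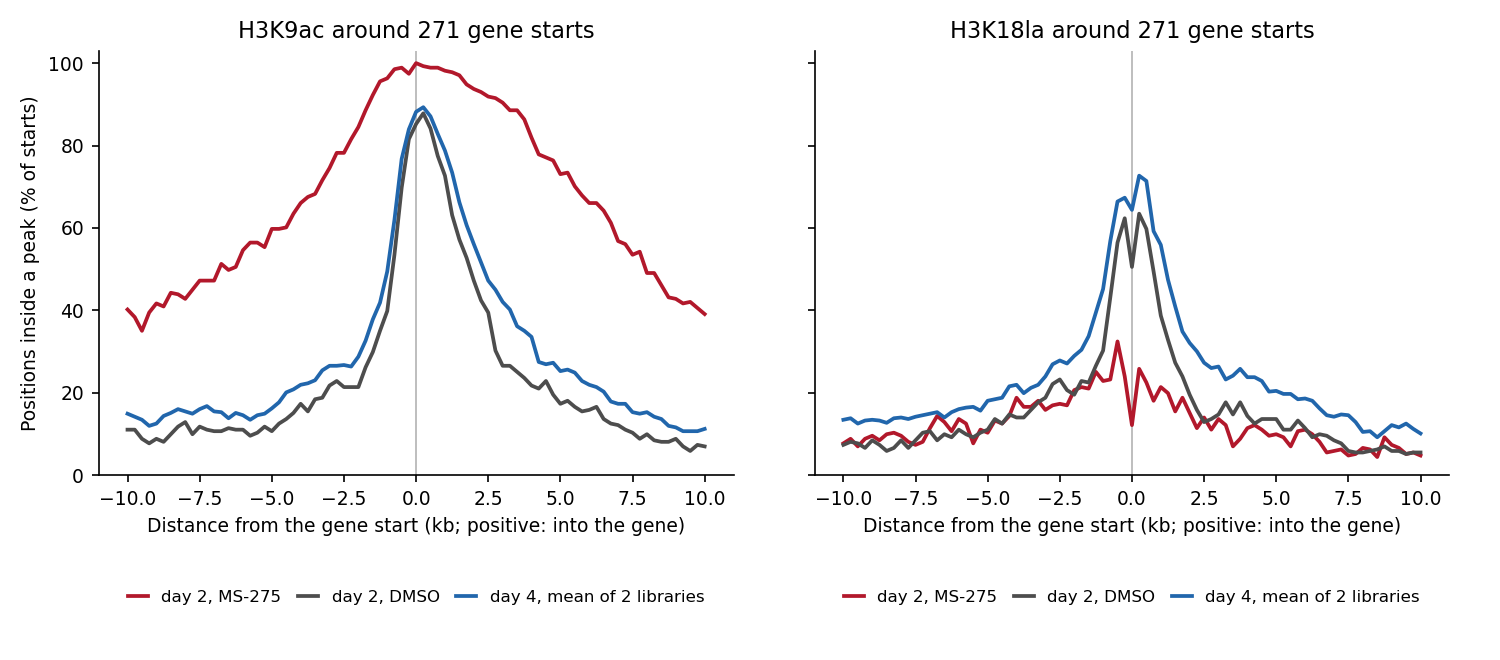
Percent of 271 gene starts (vertical axis) whose position at each distance (horizontal axis, kb from the start, in steps of 250 bp, positive into the gene) lies inside a peak of H3K9ac (left) or H3K18la (right), with MS-275 (red) and DMSO (grey) at day 2, 1 library each, and at day 4 (blue, mean of 2 libraries). H3K9ac with MS-275 is high far from the start by the choice of the regions, with 90.4% at 3000 bp into the gene against 26.6% with DMSO. H3K18la at the start is 12.2% with MS-275 and 50.6% with DMSO, and at 500 bp into the gene it is 22.5% and 59.8%.

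In cells that had not received the drug, the same regions carried more of the marks at day 4 than at day 2 with DMSO. H3K9ac peaks covered 44.7% and 44.9% of domain bases in the 2 day 4 libraries, against 34.4% with DMSO at day 2. Day 4 coverage exceeded that with DMSO in both day 4 libraries for 633 domains and was below it in both for 205. H3K18la covered 42.8% and 42.1% at day 4, against 28.0% with DMSO, and H3K9cr 35.0% and 36.6%, against 32.5%. The whole day 4 lists were also longer, at 53.4 and 52.7 Mb for H3K9ac, against 34.2 Mb with DMSO. For H3K18la they had 52.0 and 50.8 Mb, against 26.8 Mb, and for H3K9cr 38.8 and 41.4 Mb, against 32.5 Mb. The rise was not particular to the domains. In MS-275 H3K9ac peaks of 4000 to under 8000 bp, H3K9ac covered 43.7% and 43.9% at day 4, against 33.9% with DMSO. H3K18la covered 35.9% and 35.6% of them, against 24.5%. A day 4 H3K9ac peak of at least 8000 bp touched 90 domains in both libraries. Of the bases outside DMSO H3K9ac peaks, 21.3% and 21.5% lay in day 4 H3K9ac peaks and 27.1% and 25.8% in day 4 H3K18la peaks. ATAC peaks at day 4 covered 3.47% and 2.67% of domain bases. They covered 6.62% and 5.24% of MS-275 H3K9ac peaks of 4000 to under 8000 bp, and 7.02% and 5.66% of shorter ones. The longest ATAC peaks had 3356 and 3345 bp, so no single one could span a domain.

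Single domains departed from this average. The domain with Hoxa6, Hoxa7 and Hoxa9 was covered by H3K9ac to 95.2% and 93.2% at day 4, against 35.5% with DMSO at day 2, and that with Hoxd4 to 89.4% and 88.8%, against 50.6%. At Trim71 the order was the other way, with 17.96% and 14.2% at day 4, against 35.2%. The BC052040 and Rgma domains had no H3K9ac peak in either day 4 library. The Elfn2 domain, with no DMSO peak of H3K9ac, H3K9cr or H3K18la, was covered by H3K18la to 76.8% and 61.5% at day 4.

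A coding gene start lay inside 434 domains (46.7%), 361 with 1 gene and 73 with 2 or more, and 516 coding genes started inside a domain. A further 341 domains overlapped a coding gene without a listed start inside, and 143 of these overlapped a gene for which the annotation used gave no start. The remaining 155 (16.7%) overlapped no coding gene, compared with 22.3% of peaks of 4000 to under 8000 bp and 44.0% of shorter ones. This count also depends on region length. By bases, 62.8% of the domains lay inside coding genes, compared with 61.6% and 56.5% in these 2 classes of peaks. Starts were more frequent in domains with more DMSO H3K9ac: 3 of 48 domains with no DMSO peak (6.25%) held one, 78 of 289 (27.0%) above 0 and under 25%, 210 of 381 (55.1%) at 25% to under 50%, and 143 of 212 (67.5%) at 50% or more.

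The RNA libraries gave the levels of the genes that start inside domains. Of the 516 genes, 486 were in the RNA table and 476 passed the filter on low counts; the 10 that did not had at most 0.697 CPM in any library. With MS-275, 190 (39.9%) were called higher and 199 (41.8%) lower than with DMSO (edgeR quasi-likelihood test, Benjamini-Hochberg adjusted p under 0.05 over 17789 genes). Of all genes tested, 31.9% were called higher and 31.4% lower. For genes that start inside MS-275 H3K9ac peaks of 4000 to under 8000 bp, the shares were 36.9% and 38.8%. For those in shorter peaks they were 34.6% and 35.8%. The labels do not say whether the 2 libraries of a group came from separate cultures, so p-values measure the spread between these libraries. The median log2 fold change was −0.04 for the 476 domain genes and 0.01 for all genes tested. In differentiation without the drug, 234 of the domain genes were higher (49.2%) and 174 lower (36.6%) at day 4 than at day 0. The shares were 36.2% and 36.1% of all genes tested, with a median of 0.26 against 0.01. For genes in peaks of 4000 to under 8000 bp they were 40.4% and 40.6%. Domain genes called lower with MS-275 included 111 that were higher at day 4 than at day 0 and 64 that were lower. Those called higher included 77 and 87. The same counts were not made over all genes tested, so they are a description and show nothing particular to the domains.

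The direction of the RNA change went with how much of the domain was acetylated in DMSO cells. Of 76 tested genes in domains covered to under 25% with DMSO, 58 were called higher and 4 lower, with a median log2 fold change of 1.30. In domains covered to 25% to under 50%, 86 of 236 were higher and 97 lower, with a median of −0.06 (−0.07 with genes lacking DMSO counts at their bound). In domains covered to 50% or more, 46 of 164 were higher and 98 lower, with a median of −0.42. Across the 476 genes, Spearman's rho between DMSO coverage and log2 fold change was −0.45; the genes share the same libraries, and several share a domain.

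DMSO coverage also went with the RNA level, since the median DMSO level was 3.25 CPM for the genes in the least covered class, 57.4 in the middle class and 75.2 in the most covered class. Genes were therefore also split by their mean over the 10 RNA libraries. Among genes of 10 CPM or more, 32 of 44 were higher and 4 lower in the least covered class, 66 of 197 higher and 91 lower in the middle class, and 32 of 145 higher and 97 lower in the most covered class, compared with 2769 higher and 4886 lower of all 10450 genes of that level. Among genes under 10 CPM the counts were 26 higher and 0 lower of 32, 20 and 6 of 39, and 14 and 1 of 19, compared with 2903 and 685 of 7311. In the lower stratum the most covered class thus had more genes called higher than lower, the reverse of the upper stratum. The classes and the split were chosen after the values were seen, and how far the RNA level accounts for the order of the classes was not tested further.

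**Figure D3:**
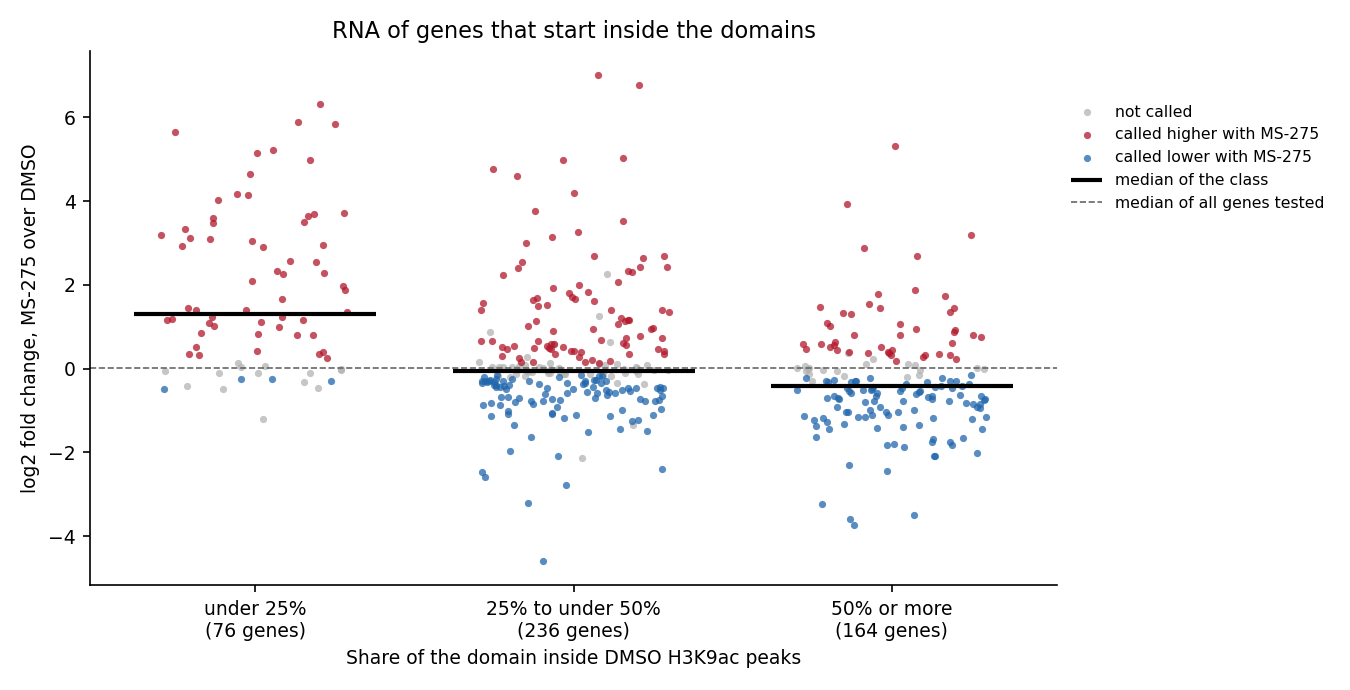
Fitted log2 fold change of RNA with MS-275 over DMSO (vertical axis) for the 476 tested genes that start inside a domain, by the share of the domain inside DMSO H3K9ac peaks (horizontal axis). Each point is a gene, red if called higher and blue if called lower by edgeR, the bars are class medians (1.30, −0.06 and −0.42), and the dashed line is the median of all genes tested.

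Hox genes gave both directions within neighbouring domains. Of 17 Hox genes described here with a start inside a domain, 6 were called higher with MS-275, 9 lower and 2 neither. Of the 10 with paralog numbers 1 to 5, which pattern the hindbrain and neck, 1 was higher and 9 lower (median log2 fold change −0.85). Of the 7 with numbers 6 and above, used farther back along the body, 5 were higher and none lower (median 1.92); this split was chosen after the values were seen. All 17 were higher at day 4 than at day 0. No label states the strand used in counting, so reads of overlapping and antisense transcripts, which are common in these clusters, may be shared between genes.

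Hoxc5 had 20.01 and 22.9 CPM with MS-275, against 235 and 247 CPM with DMSO. The groups were far apart, an 11.2-fold lower level with MS-275 (log2 fold change −3.49, SE 0.08, edgeR adjusted p = 2.29e-14). Hoxc4, in the same domain, had 56.0 and 53.8 CPM with MS-275, against 148 and 149 CPM with DMSO (log2 fold change −1.43, SE 0.06, edgeR adjusted p = 1.06e-11). In the longest domain, Hoxb5 had 59.9 and 58.8 CPM with MS-275, against 159 and 165 CPM with DMSO (log2 fold change −1.45, SE 0.08, edgeR adjusted p = 4.35e-10). Its neighbours Hoxb2, Hoxb3 and Hoxb4 fell by 0.43 to 0.53 on the log2 scale, and Hoxb6 did not change beyond its spread (67.5 and 61.9 CPM with MS-275, against 65.0 and 63.4 CPM with DMSO, edgeR adjusted p = 0.917). Hoxb7, which the domain overlaps without holding a listed start, had 52.1 and 46.9 CPM with MS-275, against 14.5 and 17.0 CPM with DMSO (log2 fold change 1.66, SE 0.09, edgeR adjusted p = 2.65e-10). The longest domain thus covered genes called lower, a gene called higher and a gene not called.

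The exception among the low numbers was Hoxb1, which marks a hindbrain segment and responds early to retinoic acid. It had 397 and 363 CPM with MS-275, against 142 and 146 CPM with DMSO (log2 fold change 1.40, SE 0.08, edgeR adjusted p = 1.32e-10). Hoxa2, in the second longest domain, had 13.8 and 18.96 CPM with MS-275, against 38.01 and 35.0 CPM with DMSO (log2 fold change −1.16, SE 0.12, edgeR adjusted p = 7.27e-07).

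Of the 7 genes with numbers 6 and above, Hoxa6, Hoxa7, Hoxa9, Hoxb9 and Hoxc8 rose, while Hoxb6 and Hoxb8 were not called (edgeR adjusted p = 0.917 and 0.138). In the Hoxa6 to Hoxa9 domain, Hoxa7 had 25.4 and 22.4 CPM with MS-275, against 3.93 and 3.41 CPM with DMSO (log2 fold change 2.70, SE 0.12, edgeR adjusted p = 5.85e-11). Hoxa6 had 7.43 and 7.22 CPM with MS-275, against 1.68 and 2.22 CPM with DMSO (log2 fold change 1.92, SE 0.18, edgeR adjusted p = 1.59e-07). Hoxa9 had 12.1 and 10.6 CPM with MS-275, against 0.157 and 0 CPM with DMSO, that is 458 counts against 3, a ratio of 153 with a 95% counting interval of 52.0 to 744 (edgeR adjusted p = 5.40e-10). Hoxa3 also starts in this domain and went the other way, with 49.1 and 50.8 CPM with MS-275, against 71.3 and 76.9 CPM with DMSO (log2 fold change −0.57, SE 0.08, edgeR adjusted p = 1.89e-05). Hoxb9 had 87.5 and 87.7 CPM with MS-275, against 8.95 and 9.33 CPM with DMSO (log2 fold change 3.26, SE 0.12, edgeR adjusted p = 1.38e-12). By day 4 Hoxa9 averaged 19.8 CPM and Hoxb9 1317 CPM without the drug.

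**Figure D4:**
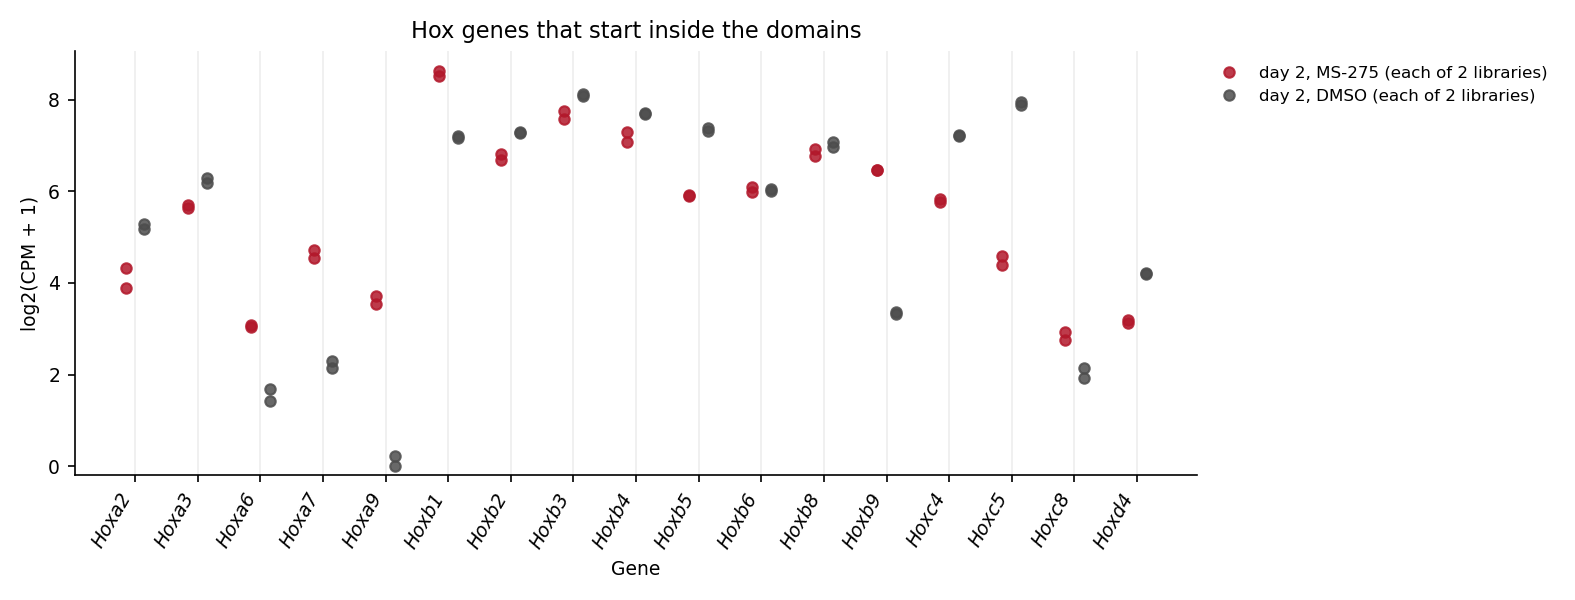
RNA level as log2(CPM + 1) (vertical axis) in each of the 2 MS-275 libraries (red, left) and each of the 2 DMSO libraries (grey, right) for 17 Hox genes that start inside a domain. Hoxa6, Hoxa7, Hoxa9, Hoxb9 and Hoxc8 are higher with MS-275, as is Hoxb1, and Hoxc5 is 11.2-fold lower.

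The 10 largest rises were taken among genes with a mean of at least 5 CPM over the MS-275 and DMSO libraries. Their domains had DMSO coverage of 13.3% to 31.2%, and 35.5% for Hoxa9. A large rise requires a low DMSO level, and DMSO coverage went with that level. The choice of genes thus favours low coverage here, and the range is a description. Prph, which encodes a neuronal intermediate filament, had 54.7 and 42.1 CPM with MS-275, against 1.15 and 0.739 CPM with DMSO, a 50.4-fold higher level (log2 fold change 5.66, SE 0.20, edgeR adjusted p = 1.07e-12). Ngfr, the low-affinity neurotrophin receptor, had 205 and 192 CPM with MS-275, against 5.76 and 6.88 CPM with DMSO (31.5-fold, log2 4.98, SE 0.10, edgeR adjusted p = 2.07e-15). Bcan, the brain matrix proteoglycan brevican, had 40.4 and 37.9 CPM with MS-275, against 2.09 and 2.16 CPM with DMSO (18.3-fold, log2 4.20, SE 0.13, edgeR adjusted p = 3.49e-13). In each of the 3 the lowest MS-275 library lay far above the highest DMSO library. Hspb1, a small heat shock protein, had 167 and 144 CPM with MS-275, against 13.0 and 11.8 CPM with DMSO (12.6-fold, log2 3.65, SE 0.11, edgeR adjusted p = 3.02e-13). Pax2, a midbrain and hindbrain patterning factor, had 13.8 and 11.5 CPM with MS-275, against 1.05 and 1.19 CPM with DMSO (11.2-fold, log2 3.49, SE 0.17, edgeR adjusted p = 5.18e-11). The other 4 were Plk5, a kinase of the Polo family, Arl4d, a small GTPase, Fbxo2, a ubiquitin ligase subunit that binds glycoproteins, and Tle2, a Groucho-type corepressor. They rose 12.9-fold to 31.7-fold.

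Without the drug these genes had different courses. Ngfr averaged 0.708, 66.1 and 25.8 CPM at day 0, day 4 and day 8, and Pax2 0.301, 181 and 112 CPM, and both were higher at day 4 than at day 0 (edgeR adjusted p = 6.34e-16 and 1.85e-17). Prph averaged 36.1, 1.59 and 0.965 CPM and Hspb1 22.1, 4.48 and 2.07 CPM on the same days, and both were lower at day 4 than at day 0 (edgeR adjusted p = 1.11e-12 and 3.59e-10). Bcan averaged 2.53, 0.974 and 47.5 CPM and was high at day 8.

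The 10 largest falls came from domains with DMSO coverage of 32.7% to 77.7%. A large fall requires a higher DMSO level, so the choice of genes favours higher coverage here. Besides Hoxc5, Ntng2, a membrane-anchored netrin relative, had 1.19 and 1.39 CPM with MS-275, against 29.9 and 32.7 CPM with DMSO (24.1-fold lower, log2 fold change −4.59, SE 0.21, edgeR adjusted p = 2.26e-11). Fgfbp3, a carrier protein of fibroblast growth factors, had 4.70 and 8.46 CPM with MS-275, against 86.8 and 89.0 CPM with DMSO (13.3-fold lower, log2 −3.74, SE 0.15, edgeR adjusted p = 4.64e-12). Hes5, a target of Notch signalling that keeps neural progenitors undifferentiated, had 1.29 and 0.697 CPM with MS-275, against 12.5 and 11.7 CPM with DMSO (12.1-fold lower, log2 −3.60, SE 0.21, edgeR adjusted p = 2.62e-10). The groups were apart for each of these genes, which the choice of the largest falls required. Wnt1, a ligand of the midbrain and dorsal neural tube, had 5.30 and 3.78 CPM with MS-275, against 30.5 and 31.5 CPM with DMSO (6.81-fold lower, log2 −2.77, SE 0.15, edgeR adjusted p = 3.92e-10). Msx1, a homeobox factor of the dorsal neural tube, had 52.5 and 49.3 CPM with MS-275, against 278 and 277 CPM with DMSO (5.45-fold lower, log2 −2.45, SE 0.08, edgeR adjusted p = 6.49e-13). The Wnt receptor gene Fzd8, the homeobox gene Irx5, the adherens junction gene Ajap1 and Nodal, a TGF-beta family ligand of the early embryo, fell 4.25-fold to 5.99-fold.

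**Figure D5:**
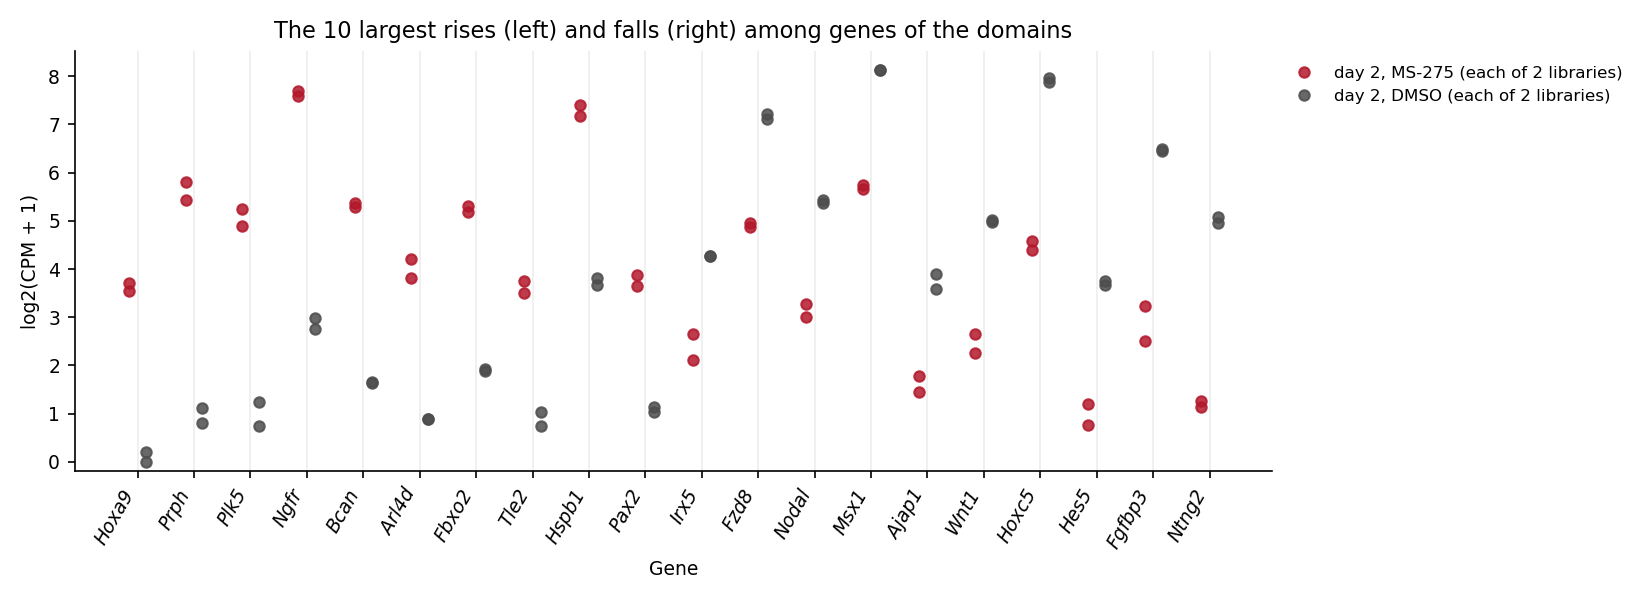
RNA level as log2(CPM + 1) (vertical axis) in each MS-275 library (red, left) and each DMSO library (grey, right) for the 10 largest called rises and the 10 largest called falls among genes that start inside a domain, have a mean of at least 5 CPM and carry neither a predicted-gene nor a Rik name. The 20 genes were taken only from genes whose 2 groups of libraries do not overlap. Ntng2 has the largest fall, at 24.1-fold lower with MS-275.

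A list of retinoic acid response and Hox genes had many members in domains, most of them Hox genes, several of which share a domain. Of its 25 genes, 18 started inside a domain, compared with 516 of all 21900 coding genes. Of the 18, 3 were higher and 12 lower with MS-275, and in the whole list 5 were higher and 17 lower. Of all genes tested, 31.9% were higher and 31.4% lower. Rarb, whose start is printed above, had 25.6 and 32.6 CPM with MS-275, against 77.1 and 77.3 CPM with DMSO (log2 fold change −1.41, SE 0.10, edgeR adjusted p = 2.85e-09), from a domain of 10436 bp with 58.8% DMSO coverage. Cyp26a1, with the other repeat, had 574 and 523 CPM with MS-275, against 547 and 575 CPM with DMSO (log2 fold change −0.03, SE 0.08, edgeR adjusted p = 0.761), and its groups overlapped. The receptors moved apart: Rarg had 12.3 and 11.3 CPM with MS-275, against 4.50 and 3.18 CPM with DMSO (log2 fold change 1.61, SE 0.17, edgeR adjusted p = 4.77e-07), and Rara had 194 and 181 CPM with MS-275, against 137 and 127 CPM with DMSO (log2 fold change 0.51, SE 0.06, edgeR adjusted p = 2.46e-06). The retinoid enzymes Cyp26b1 and Dhrs3 and the retinol transporter gene Stra6 were lower by 0.75 to 1.31 on the log2 scale, and the binding protein gene Crabp2 was near level (1025 and 942 CPM with MS-275, against 973 and 966 CPM with DMSO).

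Pluripotency genes in domains were mostly lower. Of 5 list members with a start inside, Nodal, Otx2, Sox2 and Trim71 were called lower and Pou5f1 higher, whereas in the whole list of 22 tested genes 13 were higher and 8 lower. Pou5f1 had 77.0 and 81.2 CPM with MS-275, against 40.0 and 38.04 CPM with DMSO (2.03-fold, log2 1.02, SE 0.07, edgeR adjusted p = 1.24e-09), in a domain of 8020 bp covered to 35.3% with DMSO. Sox2, a factor of pluripotent and neural progenitor cells, had 78.1 and 82.7 CPM with MS-275, against 193 and 199 CPM with DMSO (2.44-fold lower, log2 −1.29, SE 0.05, edgeR adjusted p = 6.90e-12). Trim71, in the third longest domain, had 69.3 and 69.8 CPM with MS-275, against 88.7 and 92.1 CPM with DMSO (log2 −0.38, SE 0.06, edgeR adjusted p = 3.01e-05). Libraries of the 2 groups were apart for all 3.

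Neural progenitor genes in domains split. Pax6, Nes, Meis1 and Meis2 were called higher and Dll1, Hes5 and Irx3 lower, and in the whole list of 19 genes 5 were higher and 13 lower. Pax6, an eye and forebrain factor also used in the spinal cord, had 42.3 and 45.8 CPM with MS-275, against 16.8 and 15.6 CPM with DMSO (2.72-fold, log2 1.44, SE 0.12, edgeR adjusted p = 3.11e-08), in a domain covered to 8.65% with DMSO. Dll1, a Notch ligand, had 33.3 and 37.2 CPM with MS-275, against 113 and 104 CPM with DMSO (3.08-fold lower, log2 −1.63, SE 0.09, edgeR adjusted p = 1.88e-10), in a domain covered to 86.0%. The fibroblast and mesenchyme list had 1 gene in a domain, the growth factor receptor gene Pdgfra, with 72.3 and 68.0 CPM with MS-275, against 13.6 and 13.0 CPM with DMSO (5.27-fold, log2 2.399, SE 0.11, edgeR adjusted p = 2.79e-11), and 11 of its 14 genes were higher and 2 lower. Of 5 growth and immediate early genes in domains, Junb and Ier2 were higher, Id3 and Jund lower and Id1 not called, and the list of 17 had 8 higher and 6 lower. Ier2 lost its call without the second DMSO library (log2 fold change 0.22, edgeR adjusted p = 0.213) or without the first MS-275 library (0.26, edgeR adjusted p = 0.143). No gene of the neuron, endoderm or histone acylation lists started in a domain; 9 of 17, 3 of 6 and 3 of 22 tested genes of these lists were higher and 5, 0 and 14 lower.

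Abundant transcripts changed less, apart from one. H1f0, the replacement linker histone H1.0 known to be induced by deacetylase inhibitors, had 1282 and 1222 CPM with MS-275, against 230 and 200.2 CPM with DMSO (5.82-fold, log2 2.54, SE 0.06, edgeR adjusted p = 2.01e-14), in a domain of 9001 bp covered to 46.9% with DMSO. The translation factor gene Eef2 had 5450 and 5428 CPM with MS-275, against 4935 and 4711 CPM with DMSO (1.13-fold, log2 0.17, SE 0.04, edgeR adjusted p = 0.00293), and lost its call without the second DMSO library (log2 0.13, edgeR adjusted p = 0.0580). Hnrnpa1, an RNA-binding protein, had 1614 and 1670 CPM with MS-275, against 2575 and 2569 CPM with DMSO (1.57-fold lower, log2 −0.65, SE 0.04, edgeR adjusted p = 8.66e-10). Nedd4 and Nap1l1 fell by 0.44 and 0.28 on the log2 scale. Klhdc8a, in the least covered of the 10 longest domains, had 4.46 and 4.28 CPM with MS-275, against 1.47 and 2.62 CPM with DMSO (log2 fold change 1.102, SE 0.39, edgeR adjusted p = 0.0215). Its call was lost without the first DMSO library (log2 0.73, edgeR adjusted p = 0.197), without the first MS-275 library (1.07, edgeR adjusted p = 0.0829) and without the second MS-275 library (1.13, edgeR adjusted p = 0.0654).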

How the data were processed

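H3K9ac, H3K9cr and H3K18la ChIP-seq, ATAC-seq and RNA-seq of P19 cells were analysed from 28 samples. Reads were processed with Bowtie2 2.4.1, MACS2 2.2.7.1, Salmon 1.1.0 and DESeq2 1.26.0 on GRCm38, per the submitters' processing notes; for the caller's settings and control, the sources used here give nothing. The 14 deposited peak lists give each peak's position, pileup signal, −log10 q-value and fold enrichment (a ratio) from the caller, per the file headers. They hold no read totals, so ChIP and ATAC depth is unknown, and a deeper library can yield more and wider peaks. The authors deposited estimated counts per gene, which were rounded to whole numbers (library totals in the report).

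From these, the share of each domain's bases inside the peaks of every list was computed. A gene was placed in a domain by its listed start in RefSeq GRCm38.p6 or, where no start was listed (21900 coding genes, 17492 with a listed start), by lying wholly inside. RNA was tested with edgeR 4.0.16 (quasi-likelihood, TMM scaling, filterByExpr) on all 10 libraries in 5 groups, 17789 genes passing, at an adjusted p under 0.05, and the code was tested on simulated data. Of 55385 gene identifiers, 55144 matched a symbol and 107 sharing one were left out. Counting intervals (95%) and the floor of 3 counts cover counting error only. Replicate numbers did not pair the libraries.

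Named domains were the 10 longest, 5 each with the lowest and highest DMSO coverage, and 2 on either side of the threshold. Named genes were the 10 largest called rises and falls averaging at least 5 CPM whose groups do not overlap, the 5 most abundant, genes starting in the 10 longest domains, and up to 5 members of each of 8 marker lists; genes named besides these were chosen after their values were seen. A few results that these rules select are not reported here. Members and lists were chosen with earlier results of these data known. The alternatives were DESeq2 1.42.0, RLE scaling, no filter, 4 libraries only, a replicate block, leaving out each library, other lengths, stricter q-values, joined peaks and other gene placement. Sequence around summits was not used here, and promoters were printed in its place. Python 3.11.15 and pandas 2.3.3 were used.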

Additional observations from a re-analysis of the deposited data

How the results depend on the processing

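With 1 ChIP library per mark and treatment at day 2, peak coverage has no replicate error, so every shift in it is listed. The 930 domains became 2073 at a minimum of 6000 bp, 468 at 10000 bp and 1753 with peaks under 500 bp apart joined. The 516 genes became 1048 at 6000 bp, 270 at 10000 bp, 858 by gene body overlap and 170 by whole genes inside. DMSO H3K9ac coverage, 34.4% as reported, was 33.3% and 31.4% with a DMSO −log10 q of at least 5 and 10, 35.1% with DMSO peaks joined, 33.9% at 6000 bp and 34.9% at 10000 bp. A DMSO peak was found in 882 domains, and 212 were covered to at least 50%. With a −log10 q of at least 5, at 6000 bp and at 10000 bp in turn, H3K9cr covered 93.9%, 93.5% and 95.2% with MS-275, against 31.7%, 32.1% and 33.0% with DMSO, and H3K18la 17.2%, 22.0% and 27.5% with MS-275, against 25.7%, 26.8% and 29.4% with DMSO. Day 4 coverage at that q-value was 44.1% for H3K9ac, 39.9% for H3K18la and 2.50% for ATAC. Without 1 of the 2 day 4 libraries it was 44.7% to 44.9% for H3K9ac, 35.0% to 36.6% for H3K9cr, 42.1% to 42.8% for H3K18la and 2.67% to 3.47% for ATAC.

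Without 1 RNA library, 173 to 180 domain genes were called higher and 183 to 195 lower with MS-275, and 216 to 221 higher and 163 to 175 lower at day 4. DESeq2 called 188 higher and 189 lower with MS-275. The numbers of the libraries did not pair them (correlations of −0.03 to 0.04), and with the replicate block the counts were 190 and 199 with MS-275 and 234 and 174 at day 4. By coverage class, over the 10 settings 54 to 59 genes under 25% were called higher and 1 to 5 lower (4 as reported, 2 without the first DMSO library and 1 without the second MS-275 library), and at 50% or more 41 to 47 were higher and 95 to 98 lower. No result reversed. Of 228 values of named genes without 1 library, 6 lost their MS-275 call, those of Eef2, Ier2 and Klhdc8a given above. At day 4 against day 0, Ajap1 and Ier2 lost theirs without any 1 of the 4 libraries.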

Other observations

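Domains lay close together at some genes. With neighbours at most 50 kb apart joined, the 930 domains formed 689 loci, 549 of them with 1 domain and 26 with 4 or more. The largest locus, at Gse1, which encodes a protein of a histone demethylase complex (chr8:120292183-120622791), held 13 domains with 192 kb in all, 24.0% of it in DMSO H3K9ac peaks. Gse1 RNA had 190 and 187 CPM with MS-275, against 194 and 187 CPM with DMSO (edgeR adjusted p = 0.815). The HoxC locus (chr15:102980104-103244504) followed with 10 domains and 142 kb, 44.9% in DMSO peaks, and also held Cbx5, which encodes a heterochromatin protein, and Hnrnpa1. Chromosome 11 carried 146 domains, 15.7% of them, compared with 9.88% of all MS-275 H3K9ac peaks.

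Some genes of cell types outside the lists were close to 0 with DMSO and had reads with MS-275; they were chosen after their values were seen. Olig2, a factor of motor neuron and oligodendrocyte precursors, had 48 counts with MS-275, against 1 with DMSO (ratio 48.1, 95% counting interval 8.22 to 1937). Dhh, a hedgehog ligand of Schwann and Sertoli cells, had 145 counts with MS-275, against 2 with DMSO (ratio 72.6, interval 19.7 to 605). Nr2e1, a factor of neural stem cells, had 21 counts with MS-275 and 0 with DMSO, at least 7.01-fold higher when the group's floor of 3 counts is used. DMSO H3K9ac peaks covered 8.73%, 22.3% and 18.9% of the domains of these 3 genes. Ripor3, in a domain with no DMSO peak, had 61 counts with MS-275, against 2 with DMSO (ratio 30.5, interval 8.10 to 258).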
